A study of Mus musculus with 4 samples.

Results

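Interferon-induced genes are the transcripts that cells switch on when interferon reaches them, and 35 of them were followed here in the spleens of mice with and without the transcription factor Nrf2. They were selected by gene symbol: each probe set (a group of short probes for one transcript) on the array whose only platform symbol was one of the 35 names was taken, with no use of its measured values. The list of 35 names was itself drawn up with earlier results of these data known. Of the 35 genes, 25 had a probe set of their own, 31 probe sets in all out of 12422 (25 of 8251 genes). Gbp4, Ifi203 and Ifi205 lay only on probe sets shared with other genes, and the expression of Ifi44, Oas1a, Oasl1, Oasl2, Bst2, Stat2 and Ly6a was not analysed here. Values are single-colour intensities in arbitrary units, and differences are knockout minus wild-type means of log2 intensity.

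Spleen RNA came from female mice 5 months old, 2 arrays of Nrf2 -/- (knockout) animals and 2 of Nrf2 +/+ (wild-type) littermates; the first and second array of a genotype are its replicates 1 and 2 as labelled. Both genotypes descend from heterozygotes bred from a C57B6/SJL wild-type parent and a C57B6/129SVJ knockout parent, so every animal carries a mixed strain background that can differ from mouse to mouse. The labels do not say which part of Nfe2l2, the gene of Nrf2, was deleted. Nor do they say whether each hybridised sample was a single spleen or several pooled. A p-value here therefore weighs a difference against the scatter of 4 samples. That scatter may be technical, and its estimate borrows from other probe sets of similar intensity. The age was stated to precede severe autoimmune disease.

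Interferons act through cell-surface receptors and JAK kinases. Type I interferon assembles a transcription factor complex that contains IRF9 and binds the interferon-stimulated response element in the promoters of antiviral genes such as the Ifit, Oas and Mx families. Interferon gamma, made mainly by T cells and NK cells, acts at the interferon-gamma activated site and through IRF1, and is the main inducer of the immunity-related GTPases (Igtp, Irgm1, Iigp1) and guanylate-binding proteins (Gbp), which attack vacuoles holding intracellular microbes. The classes overlap, since many members answer both interferons.

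Many of these promoters hold the same letters. RefSeq promoter windows (build GRCm38.p6, from 250 bases before to 50 bases after an annotated start) were matched for 27 of the 35 genes, 34 windows in all, and those of Gbp4, Ifi204, Iigp1, Ly6a, Ly6e, Mx1, Mx2 and Usp18 were not analysed here. The letters GAAANNGAAA, the core of the response element, were searched on both strands with overlapping matches allowed. They occurred in 15 of the 34 windows (44.1%) against 3.44% of 32851 windows of the same length. The letters TTCNNNGAA, the activated site, occurred in 9 of the 34 (26.5%) against 8.3% of all windows. Below are the 150 bases before the start of 4 members, read in the direction of the gene with the matches in capitals. Ifit1 represents the type I genes, Gbp2 is the tested gene that varied most over the arrays, Irgm1 is the tested GTPase that varied least, and Igtp holds both sets of letters.
Ifit1, chr19:34640739-34640888, plus strand: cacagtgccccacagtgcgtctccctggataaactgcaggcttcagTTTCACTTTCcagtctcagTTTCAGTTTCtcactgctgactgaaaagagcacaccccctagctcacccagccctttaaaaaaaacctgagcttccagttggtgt
Gbp2, chr3:142620513-142620662, plus strand: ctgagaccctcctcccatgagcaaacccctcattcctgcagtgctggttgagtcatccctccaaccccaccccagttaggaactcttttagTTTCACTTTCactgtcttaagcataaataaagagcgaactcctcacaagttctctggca
Igtp, chr11:58199406-58199555, plus strand: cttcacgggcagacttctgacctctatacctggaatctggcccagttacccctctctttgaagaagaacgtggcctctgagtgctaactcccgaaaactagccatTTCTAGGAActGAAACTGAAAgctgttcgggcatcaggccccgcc
Irgm1, chr11:48871421-48871570, minus strand: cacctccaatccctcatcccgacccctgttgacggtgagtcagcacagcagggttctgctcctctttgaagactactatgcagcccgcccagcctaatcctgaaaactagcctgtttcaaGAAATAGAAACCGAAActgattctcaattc
Counted from the start, the Ifit1 matches began at -104 and -85 and the Gbp2 match at -59, each as the reverse complement. Irgm1 held 2 overlapping copies, from -30 and -24. In Igtp the activated-site letters began at -45 and the response-element letters at -34, without overlap. Gbp3 held 2 reverse-complement copies, so each of the 4 GTPase genes with a window contained the response-element letters, as did 4 of the 7 genes with a window in the Ifit, Oas and Mx group. Of all genes with a window, 3.99% did. The activated-site letters lay in 1 of those 4 GTPase genes and 2 of those 7, against 9.55% of all genes. A match describes letters only and is no measure of binding.

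The arrays were first checked against their labels. Nfe2l2 read 202 and 178.6 in the knockouts and 3537 and 6321 in the wild types, a log2 difference of -4.61 (SE 0.47, limma adjusted p = 0.0199, n = 2 per group). Leaving out the first wild-type array moved that adjusted p to 0.0994 and leaving out the second moved it to 0.0582, so neither met the threshold of 0.05 used for a call, with differences of -5.04 and -4.17. The spleen label was matched by lymphocyte markers: 5 of 6 B cell markers and 6 of 7 T cell markers were on the array and each lay above the floor of 185 in the 4 arrays, the intensity to which dimmer values were raised. The first wild-type array stood apart from the other 3 arrays over the whole array. Across tested probe sets (genes, so no independent points), its correlation with each of them was at most 0.851, while the other 3 arrays reached between 0.941 and 0.947 with their closest partner. It exceeded or undercut all other arrays by more than 2-fold in 15.4% of tested probe sets, against 0.738% to 1.84% for the others. Results that rest on it are therefore given with and without it.

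No interferon-induced gene differed between knockout and wild-type spleen past the threshold. Of the 31 probe sets, 24 (22 genes) were bright enough to test. None had a limma adjusted p under 0.05, where 0.0537% of all 7453 tested probe sets did (4, all lower in knockout), and none had an unadjusted p under 0.05 either, where 1.74% of all did. Leaving out the first or second knockout array or the first or second wild-type array in turn also left no member past the threshold, where 0.134%, 0.174%, 0.0403% and 0.0671% of all tested probe sets passed. By direction, 16 of the 24 measured higher in knockout and 8 lower (66.7% higher, against 53.7% of all tested probe sets), but 11 and 13 when each array was centred on its median (45.8% higher, against 48.5%) and 12 and 12 after quantile normalization (against 49.9% of all). Their median difference was 0.032 on the log2 scale, beside 0.042 for all tested probe sets. Both knockout arrays lay above both wild-type arrays in 4 of the 24 (16.7%; Ifit1, Mx1, Gbp2 and Gbp3), where 14.3% of all tested probe sets did, and below them in 0 of 24, where 12.2% did. Standard errors ran from 0.39 to 0.82 on the log2 scale, and all 24 of the 95% confidence intervals included 0.

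**Figure D1:**
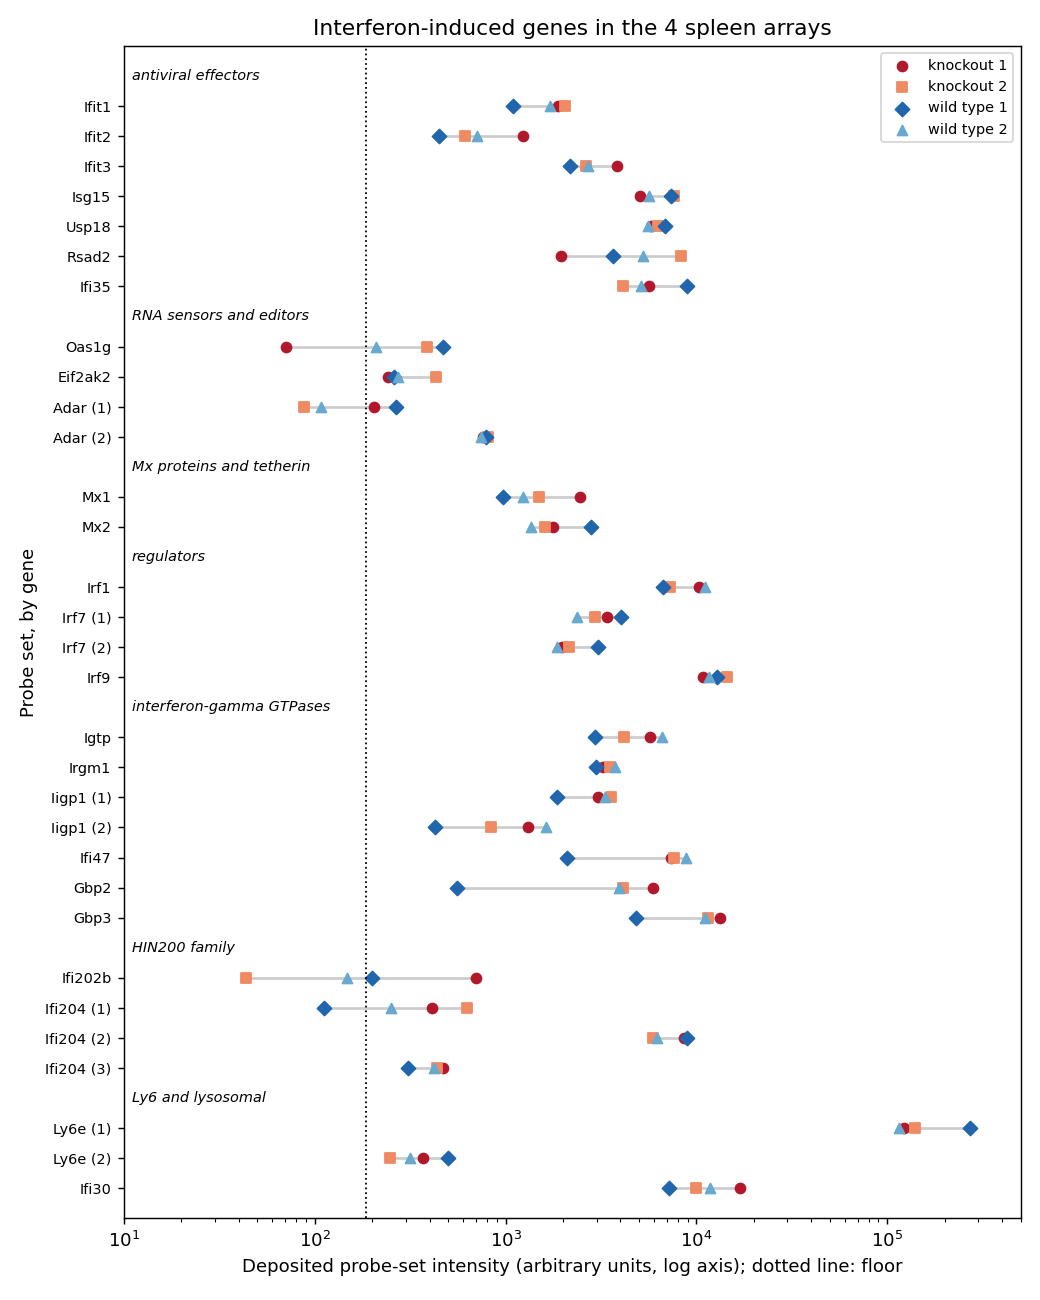
Deposited intensity (log axis, arbitrary units) of each of the 31 probe sets in the 4 arrays, 1 symbol per array, ordered by role; numbers in brackets separate probe sets of one gene, and the dotted line is the floor of 185. The first wild-type array (dark diamonds) is the lowest array in all 7 GTPase probe sets (6 after quantile normalization), and Gbp2 spans the widest range among the tested genes.

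The Ifit proteins bind viral RNA and the translation machinery. Ifit1 read 1879 and 2052 in the knockouts against 1088 and 1708 in the wild types, a log2 difference of 0.53 (SE 0.42, adjusted p = 0.992). The genotypes did not overlap, but the second wild-type array lay close to the knockout arrays, and without the first wild-type array the difference was 0.20. Ifit2 read 1232 and 615.9 in the knockouts against 447.9 and 709 in the wild types (log2 0.63, SE 0.54). The first knockout array alone was high, and the second lay between the wild-type arrays. Ifit3 read 3858 and 2627 against 2179 and 2688 (log2 0.40, SE 0.41), again with the first knockout array highest and the genotypes overlapping.

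The ubiquitin-like protein gene Isg15 and Usp18, the protease that removes ISG15 and restrains receptor signalling, gave small differences. Isg15 read 5054 and 7674 in the knockouts and 7356 and 5677 in the wild types (log2 -0.053, SE 0.42). Usp18 read 5796, 6262, 6846 and 5605, knockouts first, a range of 1.22-fold over the 4 arrays (log2 -0.040, 95% confidence interval -0.95 to 0.87). Usp18 thus varied little within either genotype. The interferon-induced protein gene Ifi35 read 5657 and 4119 in the knockouts against 8967 and 5145 in the wild types (log2 -0.49, SE 0.45), the largest negative difference among the 24. Only the first wild-type array was high there, and without it the difference was -0.092.

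Rsad2, which encodes viperin, an enzyme that makes a chain-terminating nucleotide, separated the arrays within a genotype. It read 1943 in the first knockout array and 8285 in the second knockout array, a 4.26-fold gap, with the wild types between them at 3654 and 5266. Each knockout array was thus an extreme of the 4, with a genotype difference of -0.13 (SE 0.66). It was 0.92 without the first knockout array and -1.17 without the second knockout array, so its direction depended on which knockout array was kept. Rsad2 and Ifit2 ran opposite ways between the knockout arrays. Erythroid markers (4 of 5 on the array) were also lowest in the first knockout array, summing to 18312 against 86608 to 96855 in the other 3, and their part in these values was not tested.

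The Mx proteins are dynamin-like GTPases that block viral replication. Mx1 read 2460 and 1492 in the knockouts against 971.3 and 1237 in the wild types, a log2 difference of 0.81 (SE 0.44, 95% confidence interval -0.21 to 1.82, adjusted p = 0.992). The genotypes did not overlap, the difference stayed between 0.45 and 1.17 with any 1 array left out, and none of those fits passed the threshold. Mx2 read 1763 and 1618 in the knockouts, 2802 in the first wild-type array and 1362 in the second (log2 -0.21, SE 0.46). The first wild-type array was therefore the lowest array for Mx1 and the highest for Mx2, and the Mx2 difference was 0.31 without it.

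Among the members with a probe set of their own, the sensors of double-stranded RNA were dim. Oas1g, an oligoadenylate synthetase, read 70.6 and 385.3 in the knockouts against 471.7 and 208.7 in the wild types, and was too dim to test. Eif2ak2, the kinase PKR that halts translation, read 242.1 and 429.8 against 260.9 and 273.6 and was not tested either. Adar, which edits adenosine to inosine in double-stranded RNA, had 1 tested probe set, at 758.6 and 807.7 in the knockouts and 786.2 and 746.6 in the wild types. Its range over the 4 arrays was 1.08-fold, the narrowest of the members tested (log2 0.031, 95% confidence interval -0.99 to 1.05). The other Adar probe set read 203.5 and 87.4 in the knockouts and 265.9 and 108.2 in the wild types, around the floor.

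The regulators of the response gave differences between -0.20 and 0.033, none past the threshold, and those above 0 for Irf1, Irf7 and Irf9 turned below it after median centring. Irf7, which amplifies type I interferon production, was measured by 2 probe sets with the same order of wild-type arrays. One read 3382 and 2950 in the knockouts against 4045 and 2382 in the wild types (log2 0.025, SE 0.43), and the other 1971 and 2161 against 3042 and 1852 (log2 -0.20, SE 0.42). On both, the first wild-type array was the highest array and the second wild-type array the lowest. The dimmer of these probe sets has a name that marks possible cross-hybridisation. Irf9, the DNA-binding subunit of the type I complex, read 10827 and 14422 in the knockouts and 12844 and 11608 in the wild types (log2 0.033, SE 0.41). Irf1, which responds to interferon gamma through an activated site, read 10313 and 7257 in the knockouts and 6691 and 11139 in the wild types (log2 0.0030, SE 0.45). Here the wild-type arrays were the lowest and the highest, opposite in order to Irf7.

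The GTPase genes gave the widest spread, and it lay between the wild-type arrays. All 7 tested probe sets (Igtp, Irgm1, 2 of Iigp1, Ifi47, Gbp2 and Gbp3) measured higher in knockout, with a median of 0.42, except that Irgm1 measured lower after median centring or quantile normalization; none passed the threshold. All 7 (6 after quantile normalization) were lowest in the first wild-type array, which was the lowest array in 39.2% of all tested probe sets, and 3 of the 7 (Ifi47, Gbp2 and Gbp3) lay more than 2-fold below the other 3 arrays there, against 11.8% of all. Without that array the 7 split into 3 higher and 4 lower, with a median of -0.14, and without the second wild-type array all 7 measured higher with a median of 1.30. The direction of the group therefore rested on the first wild-type array.

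Gbp2 was the extreme case. It read 5948 and 4125 in the knockouts and 3952 in the second wild-type array, but 553 in the first. The 3 similar arrays lay within 1.51-fold of each other, and the lowest of them was 7.15 times the level in the first wild-type array. The genotype difference was 1.74 (SE 0.82, 95% confidence interval -0.15 to 3.64, adjusted p = 0.992), a 3.35-fold higher level in knockout that did not pass. It was 0.33 without the first wild-type array and 3.16 without the second, and its adjusted p stayed at or above 0.0582 with any 1 array left out. Gbp3 followed the same pattern, at 13325 and 11448 in the knockouts and 4855 and 11100 in the wild types (log2 0.75, SE 0.50), with 0.15 left once the first wild-type array was dropped.

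Ifi47, an immunity-related GTPase also called Irg47, read 7342 and 7662 in the knockouts, 2111 in the first wild-type array and 8803 in the second (log2 0.80, SE 0.65). The second wild-type array was thus above both knockout arrays, and the difference turned to -0.23 without the first wild-type array. Igtp, encoding Irgm3, read 5684 and 4173 in the knockouts against 2951 and 6579 in the wild types (log2 0.14, SE 0.49; -0.43 without the first wild-type array). Its wild-type arrays enclosed both knockout values. Iigp1, an effector that coats the vacuole of Toxoplasma, read 3058 and 3577 against 1860 and 3302 on the probe set whose name marks possible cross-hybridisation, and 1307 and 840.1 against 425.7 and 1637 on the other. These gave 0.42 (SE 0.44) and 0.33 (SE 0.66), and 0.0026 and -0.64 without the first wild-type array, so the probe sets differed once that array was left out.

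Irgm1, a regulator of the effector GTPases, was the exception in size. It read 3242 and 3525 in the knockouts and 2989 and 3723 in the wild types, a range of 1.25-fold (log2 0.019, 95% confidence interval -0.88 to 0.92). The first wild-type array was again the lowest array, by a small margin. The printed promoters of Irgm1 and Gbp2 both hold the response-element letters, while their ranges over the arrays were 1.25-fold and 10.8-fold.

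**Figure D2:**
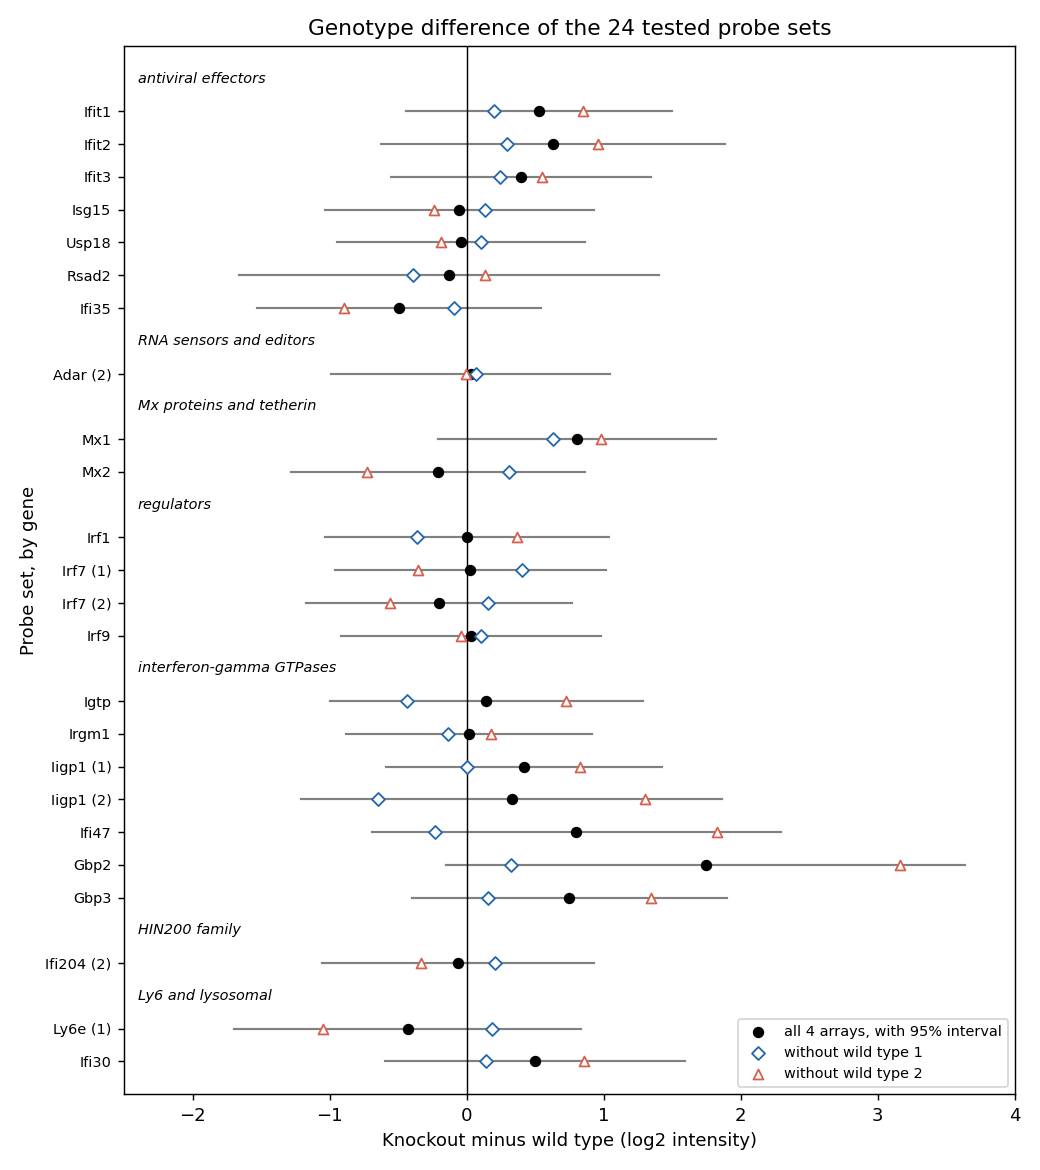
Knockout minus wild-type difference (log2 intensity) of the 24 tested probe sets: filled circles with 95% confidence intervals from all 4 arrays, open diamonds without the first wild-type array and open triangles without the second wild-type array. Every interval includes 0, and for the GTPases the diamonds lie left of the circles, at 0.33 for Gbp2 and -0.64 for the second Iigp1 probe set.

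The Ifit, Oas and Mx genes were then set against the interferon-gamma GTPases. The 6 probe sets of the first group (Ifit1, Ifit2, Ifit3, Oas1g, Mx1 and Mx2), bright or dim, had a median difference of 0.46 and a range of -0.23 to 0.81. The 6 of the second (Igtp, Irgm1, 2 of Iigp1, Gbp2 and Gbp3, without Ifi47) had a median of 0.37 and a range of 0.019 to 1.74. Over all 12422 probe sets the median was 0. Without the first wild-type array the medians were 0.30 and -0.068, and without the second wild-type array they were 0.70 and 1.07. The Ifit, Oas and Mx median was 0.21 without the first knockout array. These are descriptions of few genes, and the difference between the groups was not tested.

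Array by array, the median log2 distance from the mean of the other 3 arrays was 0.45, -0.025, -0.62 and -0.18 for the Ifit, Oas and Mx group in the first and second knockout and the first and second wild-type array. For the GTPase group it was 0.52, 0.22, -1.08 and 0.48 in that order. Both groups were thus lowest in the first wild-type array by their median. In the GTPase group every probe set went that way, all but 1 after quantile normalization. In the Ifit, Oas and Mx group Oas1g and Mx2 were highest there.

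**Figure D3:**
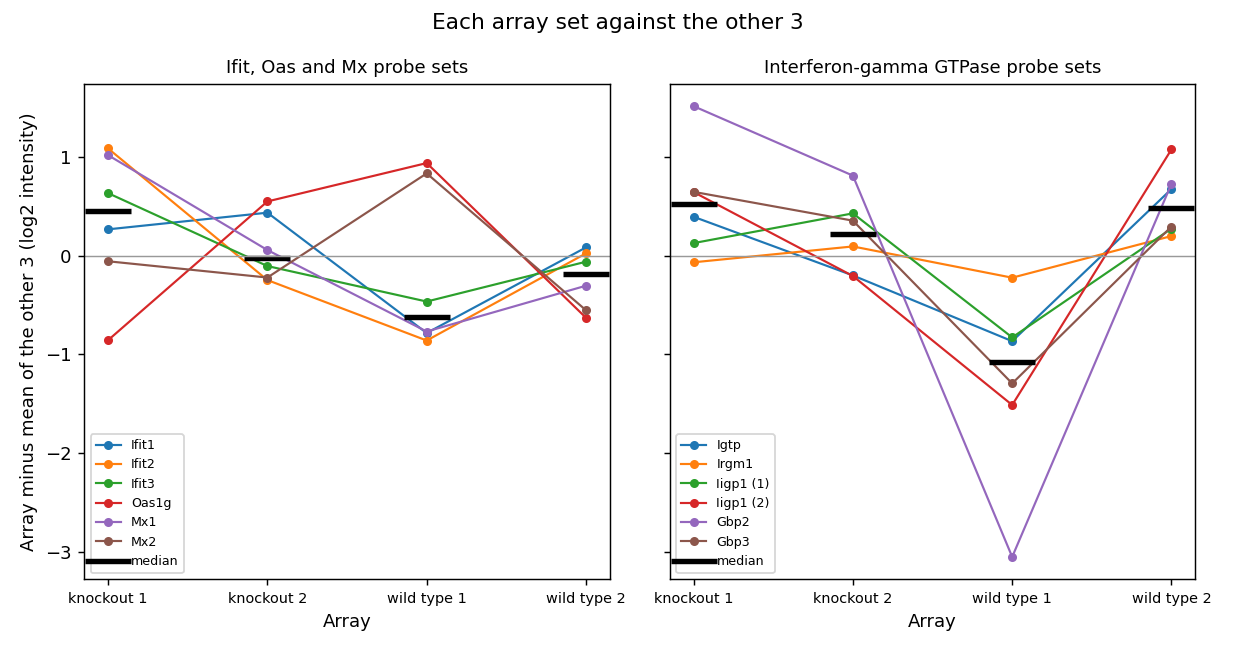
Log2 intensity of each array minus the mean of the other 3, for the Ifit, Oas and Mx probe sets (left) and the interferon-gamma GTPase probe sets (right), 1 coloured line per probe set and a black bar for the median; numbers in brackets separate the Iigp1 probe sets. The GTPase lines are all lowest in the first wild-type array (median -1.08; all but 1 after quantile normalization), Gbp2 furthest, while Oas1g and Mx2 are highest there.

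Other measures also set the first wild-type array apart. The summed intensity of the B cell markers was 281402 there against 140959 in the second wild-type array and 140989 and 118039 in the knockouts. Each marker sum takes only the brightest probe set of each gene. Of the 5 B cell markers, 4 were highest in the first wild-type array. Another tested Ms4a1 probe set, outside the sum, was lowest there, at 12050 against 28984.5 in the second wild-type array and 23152 and 19488 in the knockouts. Exocrine pancreas markers (5 of 6 on the array) summed to 66755 against 16322 in the second wild-type array and 5640 and 6513 in the knockouts. Markers of dendritic cells other than plasmacytoid (4 of 4) summed to 6214 against 9413 and 15820 and 9221 in the same order, and endothelial markers (4 of 4) to 2873 against 4773 and 4910 and 5029. In both lists 3 of the 4 were lowest in the first wild-type array. The dendritic cell marker Zbtb46 was so only narrowly, at 882.7 against 888.7 in the first knockout array. Another tested Flt3 probe set, outside the dendritic cell sum, was highest there, at 2448.5 against 1595 and 1866 and 1850. T cell markers summed to 29737 against 14539 to 21932 in the other 3 arrays and plasmacytoid dendritic cell markers (3 of 4) to 20862 against 10686 to 17054. Of the 6 T cell markers, 5 were highest in the first wild-type array and Cd3g was lowest there. Of the 3 plasmacytoid markers, 2 were highest there, Tcf4 only narrowly, at 7819 against 7750 in the first knockout array. The third, Ccr9, lay below the floor in all but the first knockout array. Neutrophil markers (7 of 7) summed to 597500 against 146518 to 449083, but only 2 of the 7 were highest in the first wild-type array and 4 in the second knockout array, while all 7 were lowest in the second wild-type array. NK cell markers (4 of 5) lay within the range of the others, at 3922 against 5438 and 3852 and 4568. Macrophage markers (7 of 7) summed to 84590 against 100585 and 85902 and 90158, with members going opposite ways: 3 were lowest and 3 highest in the first wild-type array. Adgre1, which encodes the macrophage antigen F4/80, read 123.5 there, 3644 in the other wild type and 2350 and 2964 in the knockouts, so like the GTPase genes it was lowest in that array. The 3' to 5' signal ratio of Gapdh, which grows when RNA is degraded or labelled incompletely, was highest in this array at 88.3, against 8.07 in its fellow wild type and 25.5 and 34.8 in the knockouts. The actin ratio did not set it apart, at 14.4 there, 8.86 in the other wild type and 19.3 and 16.1 in the knockouts. By both ratios the second wild-type array lay below each knockout array. Differences taken without the first wild-type array therefore still compare arrays of unequal ratio. In whole spleen, fewer cells of a type and less RNA per cell cannot be told apart. The part of these measures in the low GTPase values was not tested.

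The HIN200 proteins are DNA-binding sensors and regulators encoded by a cluster of related genes. Ifi204 had 3 probe sets, and they disagreed. The tested one read 8575 and 5951 in the knockouts against 8981 and 6195 in the wild types (log2 -0.062, SE 0.43). Of the dim ones, 1 read 409.5 and 625.9 against 111.7 and 251.1 and the other 469.2 and 436.8 against 307.6 and 423.2, with both knockout arrays above both wild-type arrays. All 3 carry a name that marks possible cross-hybridisation. Ifi202b, whose level is known to differ between inbred mouse strains, read 703.6 in the first knockout array, 43.7 in the second knockout array and 199.7 and 147.6 in the wild types. Only the first knockout array was clearly above the floor. A probe set shared by Ifi202b and an unnamed locus read 288.6, 23.8, 97.9 and 29 in the same order, again highest in the first knockout array.

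Both other shared probe sets of the HIN200 cluster were lowest in the first wild-type array. One assigned to Mndal, Ifi211, Ifi205 and Ifi204, which cannot be told from each other, read 14213 and 12990 in the knockouts, 1469 in the first wild-type array and 17270 in the second. The lowest of the other 3 arrays was 8.84 times the first wild-type array (log2 1.43, SE 0.98, and -0.35 without that array). Another, assigned to Ifi203 with a pseudogene and an unnamed locus, read 12048 and 10053 in the knockouts, 2814 in the first wild-type array and 10929 in the second (log2 0.99, SE 0.63, and 0.010 without that array). A dim probe set shared by Gbp8 and Gbp4 went the other way, at 250.2 and 122 in the knockouts, 1266 in the first wild-type array and 149.6 in the second. The adjusted p was 0.992 for each of the first 2 of these, and the last was too dim to test.

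Ly6e, a surface protein and entry factor for some viruses, read 123135 and 140216 in the knockouts, 271824 in the first wild-type array and 115326 in the second (log2 -0.43, SE 0.55, and 0.19 without the first wild-type array). It was 2.36 times higher in the first wild-type array than in the second. Its other probe set, at 369.8 and 247.1 in the knockouts and 500.6 and 314.3 in the wild types, was also highest in the first wild-type array. Both carry a name that marks possible cross-hybridisation. The difference of the brighter one was -0.014 after quantile normalization. Ifi30, the lysosomal thiol reductase that prepares antigens for MHC class II, read 17001 and 10011 in the knockouts against 7222 and 11801 in the wild types (log2 0.50, SE 0.47). The first knockout array was high and the first wild-type array low, with the remaining arrays close together.

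Elsewhere in the pathway, no gene passed either. Of 78 other interferon ligands, receptors, signalling genes and induced genes listed, 59 were on the array and 49 were tested, with 57 probe sets. Of these 57, 36 measured higher in knockout and 21 lower, where 53.7% of all tested probe sets measured higher. After median centring the split was 33 and 24, against 48.5% of all measuring higher. It was 34 and 23 after quantile normalization, against 49.9% of all. None of the 57 had a limma adjusted p under 0.05, where 0.0537% of all tested probe sets did. An unadjusted p under 0.05 was reached by 1 of them, where 1.74% of all did. The median was 0.17, and -0.015 without the first wild-type array. Both knockout arrays lay above both wild-type arrays in 8 of the 57 and below them in 10, where 14.3% and 12.2% of all tested probe sets did.

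The interferon genes themselves were mostly dim. Ifng, the gamma interferon gene, read 170.8 and 103.7 in the knockouts and 347.4 and 44.7 in the wild types, with its highest and lowest values in the wild types. Ifnb1 stayed at or below 194.3 in each of the 4 arrays. Of the alpha interferon genes, only an Ifna5 probe set was bright enough to test, and it read 552.8 and 841.5 in the knockouts and 314.5 and 924.7 in the wild types (log2 0.34, SE 0.63, and -0.44 without the first wild-type array), on a probe set marked for cross-hybridisation. Il18, a cytokine that induces interferon gamma, read 3788 and 3979 against 3072 and 3333 (log2 0.28, SE 0.38). Its genotypes did not overlap. Nor did those of a dim Ifna4 probe set, which was lower in knockout, at 292.9 and 98.5 against 562.6 and 427.3. Another dim Ifna4 probe set overlapped.

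Among the receptors, Ifnar1, a chain of the type I receptor, read 1996 and 1662 in the knockouts against 573 and 1424 in the wild types (log2 1.01, SE 0.52, adjusted p = 0.992, and 0.36 without the first wild-type array). Ifngr1, the ligand-binding chain for interferon gamma, read 2943 and 2546 against 1756 and 2132 (log2 0.50, SE 0.39, and 0.36 without the first wild-type array). Both knockout arrays were above both wild-type arrays for these chains. The Ifnar2 probe sets gave 0.22 and 0.16 with overlapping genotypes, and -0.34 and -0.33 without the first wild-type array. Ifngr2 was too dim to test, at 112 and 119.8 against 361.5 and 253.5. Its knockout arrays were below the floor and below both wild-type arrays.

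By the smallest p, the other genes to name were Nmi, Ifrd1, Trim30a, Psmb10, Jak1, Ptpn2 and Ifi27, beside Ifnar1. Nmi, a protein that binds STAT factors, read 471.2 and 905.8 in the knockouts against 1672 and 2316 in the wild types. Its difference of -1.59 (SE 0.48, 95% confidence interval -2.71 to -0.47, adjusted p = 0.992) was -1.83 without the first wild-type array, so it did not rest on that array. The receptor kinase gene Jak1, the phosphatase gene Ptpn2, Trim30a and the interferon-related developmental regulator Ifrd1 all lay more than 2-fold below the other 3 arrays in the first wild-type array. Their differences of 1.14, 0.79, 1.18 and 1.66 became -0.062, 0.14, 0.19 and 0.15 without it. Jak1 read 15793 and 14169 in the knockouts, 2944 in the first wild-type array and 15620 in the second, so only that array was low. The immunoproteasome subunit gene Psmb10 and Ifi27 differed by -0.76 (SE 0.47) and -0.62 (SE 0.40), or -0.33 and -0.42 without the first wild-type array, with both knockout arrays below both wild-type arrays.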

How the data were processed

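Spleen RNA of 2 knockout and 2 wild-type arrays was compared. The deposited values are linear 1-colour intensities, 1 per probe set and array; how the authors computed and scaled them is not given in the sources used here. Their 2% trimmed means lay between 2501.5 and 2502.0, so no further scaling was applied. No arrays held identical values. Of 12488 probe sets, 66 controls were left out. Values below the pooled 25th percentile (185) were raised to it before log2, and probe sets with a mean above the 40th percentile were tested. A fold on this scale understates differences of dim genes. Gene names came from the platform annotation, updated by gene identifier to the GRCm38.p6 reference table (10817 of 10833 with 1 symbol matched); 396 had several symbols and 1193 none. The fit used limma 3.58.1 in R 4.3.3 (lmFit, eBayes with intensity trend), two-sided tests, with p-values adjusted by Benjamini-Hochberg across the 7453 probe sets tested; n = 2 per group limits precision. It was tested on simulated data in which all arrays varied alike, so that test does not cover an array that stands apart. The members and lists were chosen with earlier results of these data known. All members may be named, with Nfe2l2, the interferon ligands and receptors, and the 8 other pathway genes with the smallest p. The median of probe sets of a group takes all of them, whatever their brightness. Same-numbered replicates did not deviate together (correlation 0.04 over probe sets) and are not paired by the labels. Alternatives changed the scaling, floor, filter, variance model, replicate block, arrays and probe sets used. Plots used Python 3.11.15 and matplotlib 3.10.9.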

Additional observations from a re-analysis of the deposited data

How the results depend on the processing

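No interferon-induced probe set was called under any of the alternatives. The count of calls over all probe sets, 4, became 0 with no filter, 36 with the replicate block (not paired; the lowest adjusted p among the members was then 0.0885), 2 without probe sets whose names mark cross-hybridisation and 7 at an adjusted p under 0.1; it ran from 3 to 13 with 1 array left out, 3 without wild-type replicate 1, 5 without wild-type replicate 2, 10 without knockout replicate 1 and 13 without knockout replicate 2. The cause was not tested. Leaving out 1 array gave medians of 0.21 to 0.70 for the Ifit, Oas and Mx group, -0.068 to 1.07 for the GTPase group and 0.12 to 0.31 for all 31 probe sets, whose median was -0.025 after median centring. Median centring turned small differences of Irf1 (-0.056), Irf9 (-0.025), the first Irf7 probe set (-0.034), Adar (-0.028) and Irgm1 (-0.040), and quantile normalization those of Irf1 (-0.023), that Irf7 probe set (-0.037), Adar (-0.024) and Irgm1 (-0.046). The other floor and the pseudocount turned no direction among the members. The stricter filter, the fit without intensity trend and the replicate block leave the difference itself unchanged, so they could turn none. Leaving out 1 array turned 15 of the 24: Ly6e (-1.05 to 0.19), Irf1 (-0.36 to 0.37), Mx2 (-0.73 to 0.31), Irf9 (-0.17 to 0.24), Rsad2 (-1.17 to 0.92), both Irf7 probe sets (-0.36 to 0.41 and -0.56 to 0.16), Ifi47 (-0.23 to 1.83), Igtp (-0.43 to 0.72), Usp18 (-0.18 to 0.10), Adar (-0.014 to 0.076), the Iigp1 probe set of wider range (-0.64 to 1.30), Irgm1 (-0.14 to 0.18), Ifi204 (-0.33 to 0.21) and Isg15 (-0.35 to 0.25). With 1 array left out a genotype holds a single array, taken to vary like the other. With 2 arrays a group, the median standard error over tested probe sets was 0.46 on the log2 scale.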
